A study of Gymnopus androsaceus with 9 samples.

Results

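A set of 150 genes of Gymnopus androsaceus had higher transcript levels at 2 months of growth on pine needles than at 5 or 10 months, with similar levels at the later harvests. The genes were chosen from the measured values of all 9 libraries, out of 29375 listed genes. The level of a gene is its count of reads unique to that gene, divided by a median-of-ratios size factor and brought to the mean library size, and is given as scaled CPM (below, CPM), the usual unit of read counts corrected for library size. A gene was kept when its 2-month mean was at least 10 CPM and at least 2 times both later means, when the later means lay within 1.5-fold of each other, and when every 2-month library stood above all 6 later libraries. These conditions were met by 152 genes, and the 150 with the highest ratio of the 2-month mean to the higher later mean were retained. The excess at 2 months and the likeness of the later harvests are therefore descriptions of what was selected, and no test is made of them.

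The libraries came from mycelium on Scots pine needles that had been mixed with sand, sterilised by gamma radiation and inoculated with a needle colonised beforehand for 2 months. Every microcosm received 20 ml of 100 mM NH4Cl after inoculation and was kept sealed at 20 ºC, so added nitrogen was common to all harvests. The harvests were at 2, 5 and 10 months, with 3 biological replicates sequenced at each of them, of 4 microcosms collected per harvest. No uncolonised or other control was part of the comparison, and the harvests differ only in the length of incubation as far as the labels say.

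Gymnopus androsaceus, the horsehair fungus, is a litter-decomposing basidiomycete that spreads between fallen needles by thin, dark rhizomorphs. Fungi of this kind first use soluble and easily reached compounds of the litter and secrete hydrolytic and oxidative enzymes that act on cellulose, hemicelluloses and lignin. The quality of the remaining litter changes as the needles are consumed, and the transcripts of the mycelium can be followed over the same period. The deposited tables give genes by JGI protein ID alone and pair none with a name or product. What the 150 genes encode is therefore not stated, and members are described by their levels, their agreement between microcosms, their transcript length and the uniqueness of their reads.

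Library depth lay between 21939600 and 96533143 unique gene reads and was lowest on average at 2 months, the harvest at which the 150 genes were high. Every member had at least 54 unique reads in each 2-month library and at least 8 in each later library. Of 900 values in later libraries, 15 rested on fewer than 50 reads, and none lay under a floor of 3 reads. In the later libraries this floor corresponded to 0.0288 to 0.0776 CPM. The 10 most abundant genes of the series took 26.3% of unique reads in 2-month replicate 2, 20.2% in 10-month replicate 1 and 34.5% in 10-month replicate 2, against 5.52% to 9.63% in the other 6 libraries. Their part in the levels of the 150 genes is given below as values without these 3 libraries.

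Taken as a group, the 150 genes held 11736, 13743 and 14295 CPM in 2-month replicates 1, 2 and 3. They held 4584, 4365 and 4501 in the 5-month libraries and 4129, 4026 and 4736 in the 10-month libraries. The 2-month libraries were all high, and the 6 later libraries lay close together with the 5-month and 10-month values overlapping. The harvest means were 13258 ± 1347, 4483 ± 111 and 4297 ± 383 (SD, n = 3 each) at 2, 5 and 10 months. As a plain percentage of unique reads, which uses no size factor, the group took 1.59% ± 0.175, 0.591% ± 0.0159 and 0.393% ± 0.126 (SD, n = 3 each) at 2, 5 and 10 months. The lowest of these shares, 0.262%, was in 10-month replicate 2, the library in which the 10 most abundant genes took the largest share. In RNA from whole mycelium, fewer cells carrying a transcript and less of it per cell cannot be told apart.

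**Figure D1:**
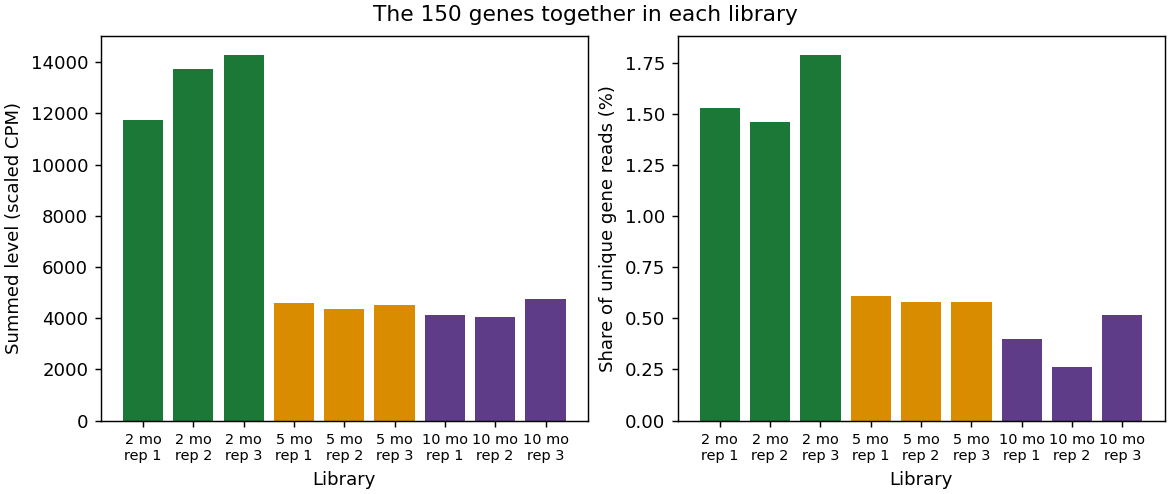
Bars show the summed level of the 150 genes in CPM (left) and their share of unique gene reads in percent (right) in each of the 9 libraries, ordered by harvest and replicate. The 2-month libraries stand between 11736 and 14295, above all later libraries, and the share falls as low as 0.262% in 10-month replicate 2.

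Members spanned a wide range of abundance. The 2-month means ran from 10.1 to 946 CPM with a median of 40.2, while the later medians were 14.2 at 5 months and 13.1 at 10 months. At 2 months 42 members lay between 10 and 20, 43 between 20 and 50, 31 between 50 and 100, 21 between 100 and 200, and 13 at 200 or more. The 13 most abundant members supplied 45.2% of the group's summed 2-month level, and the single most abundant supplied 7.13%. To compare genes with one another, levels were also divided by transcript length in kilobases. On that scale the median member ranked 3849th, 8287th and 8255th at 2, 5 and 10 months among 24884 genes with a unique read. Among the 1000 highest-ranked genes stood 25, 8 and 7 members at 2, 5 and 10 months.

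After 2 months the members were reduced rather than absent, with at least 8 unique reads in each later library. The ratio of the 2-month mean to the higher later mean had a median of 2.50 and lay between 2 and 3 in 98 members, between 3 and 4 in 19, between 4 and 8 in 18 and at 8 or above in 15. Both later means were still at least 10 CPM in 84 members and at least 50 in 19. In 25 members both later means were under 5, in 8 under 2, and in 2 under 1. The class with ratios of 8 or above had medians of 25.0, 2.07 and 1.72 CPM at 2, 5 and 10 months, with 2-month means from 11.9 to 342, and supplied 7.84% of the summed 2-month level. The class with ratios between 2 and 3 had medians of 39.9, 16.3 and 15.8 at 2, 5 and 10 months and supplied 67.2%.

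**Figure D2:**
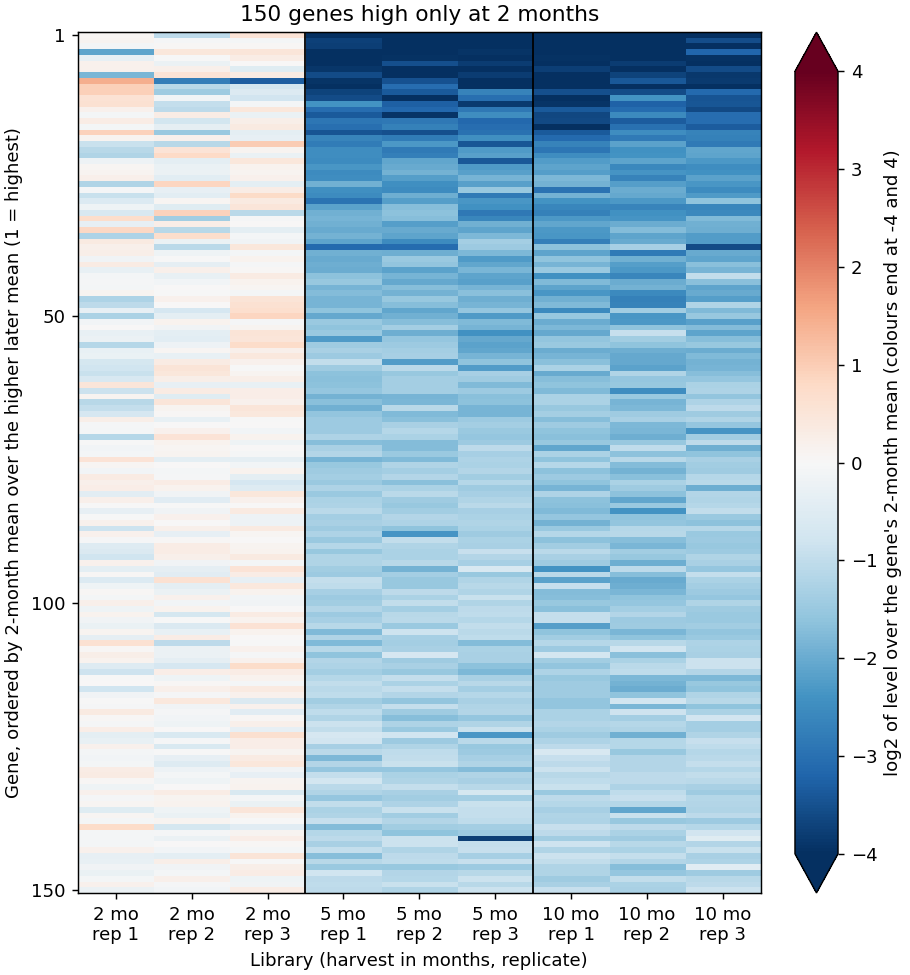
Each row is a member, ordered by the ratio of its 2-month mean to the higher later mean, and each column a library in order of harvest and replicate; colour gives log2 of the level over the gene's own 2-month mean. The contrast is strongest in the 15 top rows, with ratios of 8 or above, and weaker in the lower part, where 98 members have ratios between 2 and 3.

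The steepest contrasts were those of ID 1006202 and ID 974272. ID 1006202 had 19.2, 8.83 and 26.1 CPM in the 2-month libraries, 0.541, 0.788 and 0.207 in the 5-month libraries and 0.426, 0.583 and 0.714 in the 10-month libraries. Its 2-month libraries differed by up to 2.96-fold, yet the lowest of them was far above any later library. The 2-month mean was 31.4 times the higher later mean, and the edgeR log2 fold changes were -5.06 ± 0.50 at 5 against 2 months and -5.0 ± 0.50 at 10 against 2 months (± SE). ID 974272 had 36.9, 33.0 and 31.8 at 2 months, 2.55, 0.903 and 1.09 at 5 months and 1.64, 0.602 and 2.92 at 10 months. Here the 2-month libraries were alike and the later ones scattered at a low level, with a ratio of 19.7. The edgeR log2 fold changes of ID 974272 were -4.48 ± 0.56 at 5 against 2 months and -4.30 ± 0.55 at 10 against 2 months (± SE). Leaving out single libraries of the later harvest moved these values between -5.11 and -4.19 at 5 against 2 months and between -4.90 and -3.92 at 10 against 2 months, the largest falls being without 5-month replicate 1 and 10-month replicate 3, the highest libraries. Without the 3 libraries rich in the 10 most abundant genes the fall at 10 against 2 months was -3.57.

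The most abundant members per kilobase were ID 934201 and ID 824376. ID 934201 had 930, 944 and 964 CPM at 2 months, 402, 330 and 444 at 5 months and 295, 340 and 426 at 10 months. Its 2-month libraries were nearly equal and all more than 2 times any later library. Over its implied transcript of 747 bases this gave means of 1266, 525 and 473 CPM per kilobase at 2, 5 and 10 months. In the authors' RPKM, which is scaled to library totals, it stood at 1596, 1322 and 1588 at 2 months, 698, 577 and 758 at 5 months and 377, 293 and 606 at 10 months. ID 824376, with an implied length of 612 bases, had 596, 554 and 706 CPM at 2 months, 338, 262 and 267 at 5 months and 272, 278 and 243 at 10 months. It remained an abundant transcript throughout, with means of 618 ± 78.6, 289 ± 42.6 and 264 ± 18.7 (SD, n = 3 each) at 2, 5 and 10 months.

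**Figure D3:**
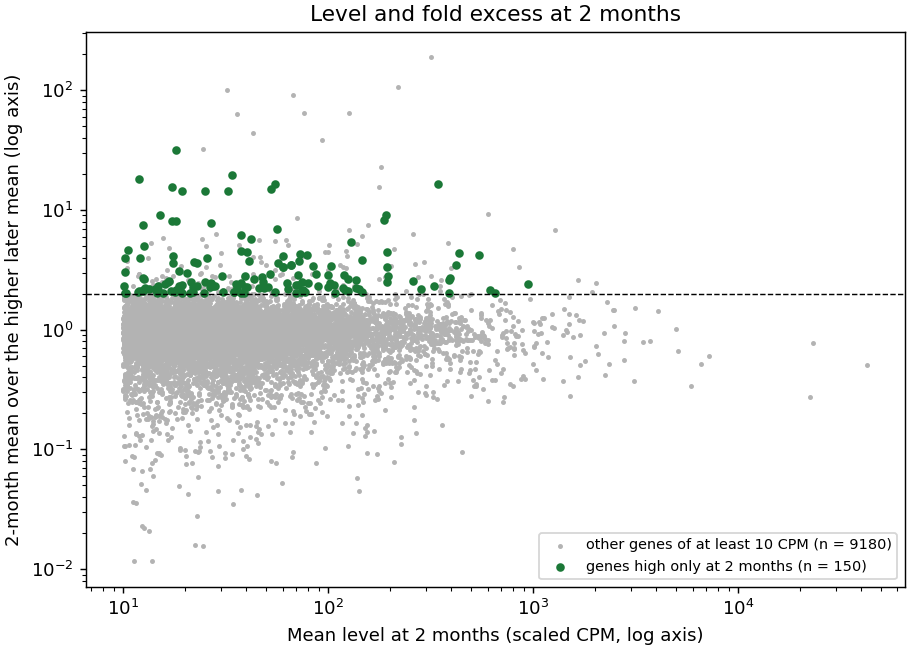
Each point is a gene with a mean of at least 10 CPM at 2 months; the horizontal axis is that mean and the vertical axis is its ratio to the higher later mean, both on log axes, with the dashed line at 2. The 150 members lie above the line at all levels up to 946, and grey points above the line are genes that missed another condition of the rule or, in 2 cases, lay beyond the limit of 150.

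Agreement among the 2-month microcosms varied strongly between members. The highest 2-month library exceeded the lowest by less than 1.5-fold in 64 members, by 1.5-fold to 2-fold in 41, by 2-fold to 3-fold in 23 and by 3-fold or more in 22. Among all 9330 genes with a 2-month mean of at least 10, 63.3% were under 1.5-fold and 2.44% at 3-fold or more, against 42.7% and 14.7% of the members. A gene can meet the rule through a high value in a single 2-month library, so this difference may be shaped by the selection and was not tested. A single 2-month library held over 50% of the summed 2-month level in 331 (3.55%) of the 9330 genes and in 22 members (14.7%). This difference may likewise be shaped by the selection and was not tested. Among the 22 members that library was replicate 1 in 9, replicate 2 in 5 and replicate 3 in 8. The median ratio was 2.27 in members with a spread under 1.5-fold and 4.17 in those with a spread of 3-fold or more. The rule set the lowest 2-month library above all later ones, so a wide spread goes with a high ratio by selection. Nothing is read from this difference.

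The extremes show how different these cases were. The narrowest spread belonged to ID 934201, at 1.04-fold, and to ID 148504, at 1.05-fold. ID 148504 had 377, 395 and 396 CPM at 2 months, 141, 160 and 152 at 5 months and 146, 112 and 134 at 10 months. Its means at 2, 5 and 10 months were 389 ± 10.7, 151 ± 9.39 and 131 ± 17.1 (SD, n = 3 each), so the difference from 2 months was many times the spread between replicates. The widest spread, 27.3-fold, belonged to ID 805220, with 53.6, 2.87 and 1.96 at 2 months, 1.28, 1.73 and 1.01 at 5 months and 0.863, 1.84 and 1.37 at 10 months. Replicate 1 alone held 91.7% of its 2-month level, and the other 2-month libraries lay just above the later ones. Without 2-month replicate 1 its log2 fold change was -0.84 at 5 against 2 months and -0.86 at 10 against 2 months, in place of -3.87 and -3.90. ID 923986 had 79.9, 469 and 477 at 2 months, 17.0, 13.5 and 22.5 at 5 months and 15.5, 8.78 and 38.1 at 10 months. In this gene replicate 1 was the low 2-month library, at 79.9 beside a highest later value of 38.1. At 10 against 2 months its log2 fold change was -4.05 (SE 0.78). It was -4.83 without 10-month replicate 3, and -2.88 without the 3 libraries rich in the 10 most abundant genes.

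**Figure D4:**
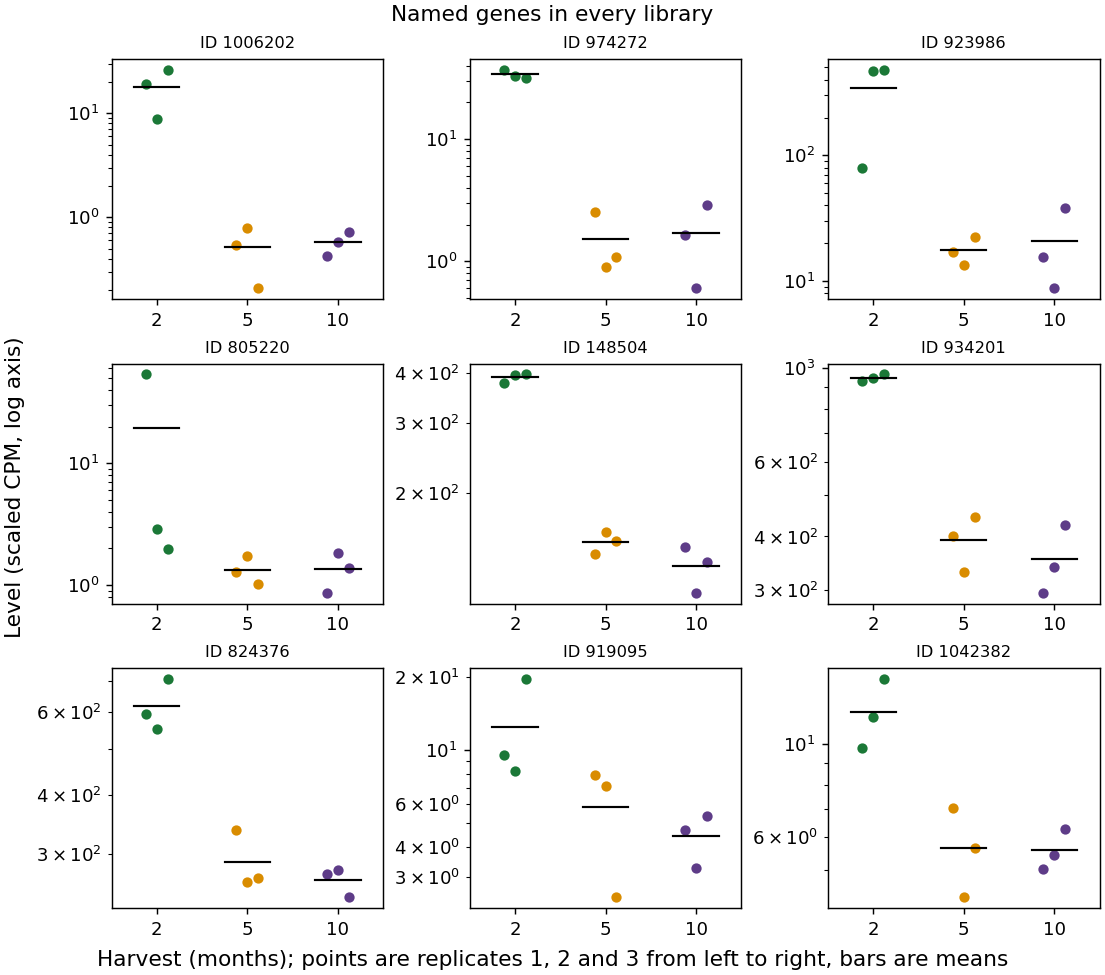
Each panel shows 1 named gene, with its level in CPM on a log axis in the 3 libraries of each harvest; bars are means. ID 148504 and ID 934201 have tight 2-month values, whereas the 2-month mean of ID 805220 rests on replicate 1, at 53.6 against 2.87 and 1.96.

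Members also differed in which 2-month library was highest. Replicate 3 was the highest 2-month library in 74 members (49.3%), replicate 2 in 39 (26.0%) and replicate 1 in 37 (24.7%). Over the 9330 genes with a 2-month mean of at least 10 the shares leaned the same way, at 40.5%, 26.4% and 33.0%. The median member stood at 109% of its own 2-month mean in replicate 3, 94.1% in replicate 2 and 95.3% in replicate 1. Replicate 3 was also the shallowest library, with 21939600 unique reads, and the part of depth in this lean was not tested. The 13 members at 200 CPM or more had their lowest 2-month value in replicate 1 in 9 cases and their highest there in 0 cases. Of the 9330 genes, 32.2% were lowest and 33.0% highest in replicate 1. The shares among all genes at 200 CPM or more are not given, so nothing is read from these counts.

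**Figure D5:**
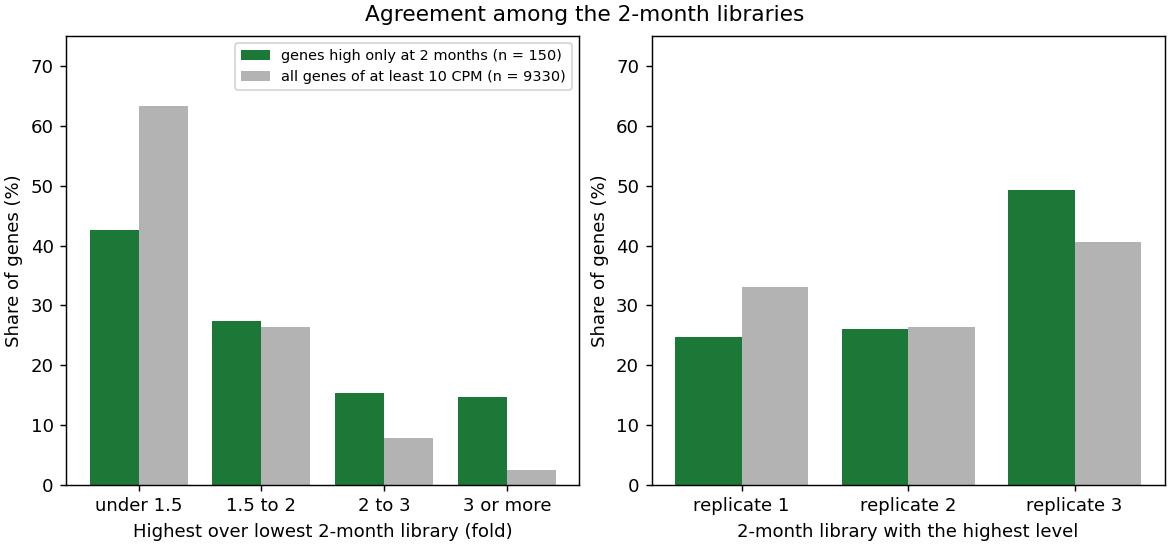
Bars give the share of genes in percent by the fold between the highest and lowest 2-month library (left) and by which 2-month library was highest (right), for the 150 members and for all 9330 genes of at least 10 CPM at 2 months. The share under 1.5-fold is 42.7% in members against 63.3% in all these genes, and the share highest in replicate 3 is 49.3% against 40.5%.

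The gap between the lowest 2-month and the highest later library measures how cleanly a member was separated. It had a median of 1.66-fold and ran from 1.04-fold to 12.8-fold. It was at least 1.5-fold in 99 members and at least 2-fold in 44, and under 1.1-fold in 8. The middle 2-month library was at least 2 times both later means in 128 members, and the lowest one in 65. Among the 15 members with ratios of 8 or above, the gap was at least 2-fold in 14, and in 8 of the 98 with ratios between 2 and 3. Over the 9330 genes with a 2-month mean of at least 10, 14.2% had all 2-month libraries above all later libraries. The rule required this separation of all members, so nothing is read from the difference.

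Between the later harvests the members moved little, as the rule required. The 5-month mean was above the 10-month mean in 86 members and below it in 64, and the means lay within 1.1-fold of each other in 45 members. The median ratio of the 5-month to the 10-month mean was 1.07. This balance depended on the scaling: with upper-quartile scaling 102 members were higher at 5 months, and with library totals alone 148 were, at a median ratio of 1.55. Library totals alone also raised this ratio for all genes of at least 10 at 2 months, to a median of 1.38. Within a harvest the highest library exceeded the lowest by a median of 1.34-fold at 5 months and 1.38-fold at 10 months, against 1.59-fold at 2 months. Each of the 6 later libraries was the highest of them in 19 to 35 members. Medians of all 9330 genes of at least 10 at 2 months were 1.28-fold at 5 months, 1.28-fold at 10 months and 1.39-fold at 2 months.

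A fit across the whole table with edgeR's quasi-likelihood method gives the same contrasts with their errors. All 150 members passed its low-count filter, which left 20168 genes to test. With a threshold of 0.05 on the Benjamini-Hochberg adjusted p, 146 members were lower at 5 than at 2 months, where 9.1% of all tested genes were, and 148 were lower at 10 than at 2 months, where 15.6% were. The members were chosen on these means, so the counts show no more than the rule did. Both comparisons share the 2-month libraries. The median log2 fold change over the members was -1.48 at 5 against 2 months and -1.61 at 10 against 2 months, beside medians of -0.01 and -0.03 over all genes tested. Leaving out the 3 libraries in which the 10 most abundant genes took over 10% of reads left a single 10-month library, assumed to vary like the others. Calls of that fit are therefore not counted here. Without these libraries the members' median ratio of the 2-month mean to the higher later mean was 2.47.

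5 members missed the threshold in at least 1 of these comparisons and were named after their values were seen, apart from ID 805220 and ID 919095. At 5 against 2 months these were ID 805220, ID 919095, ID 864219 and ID 254119, and at 10 against 2 months ID 912084 and ID 254119. ID 254119 had 23.5, 20.9 and 30.1 CPM at 2 months, 12.1, 13.6 and 1.84 at 5 months and 9.52, 9.25 and 17.9 at 10 months. Its 2-month libraries agreed, and the scatter lay at the later harvests, where 5-month replicate 3 was far below the others. ID 912084 had 83.5, 34.2 and 99.0 at 2 months, 8.35, 8.57 and 26.4 at 5 months and 23.4, 28.9 and 6.0 at 10 months. At 10 against 5 months 2 members were called, both lower at 10 months, where 8.19% of tested genes were called lower and 9.94% higher. Other settings gave other counts, from 0 with a replicate block or a 2-fold minimum to 8 with upper-quartile scaling, 9 with DESeq2 and 46 with library totals alone. The share of all tested genes called under these settings is not given here. The 2 members were ID 966702 and ID 917838, also named after their values were seen. ID 966702 had 118, 109 and 135 at 2 months, 52.5, 63.1 and 52.1 at 5 months and 40.1, 34.2 and 39.4 at 10 months, so it stepped down a little further without overlap between the later harvests.

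Transcript length and read uniqueness played no part in the rule. Dividing the deposited total reads by RPKM gave one whole-number length per gene for all 150 members. The shortest implied transcript had 321 and the longest 5562 bases, and the median was 1324, beside 1351 for the 9330 genes of at least 10 CPM at 2 months and 1107 for all genes tested. Members under 500 bases made up 4.0% and those over 3000 bases 6.0%, against 5.06% and 7.65% of the 9330 genes. The 15 members with ratios of 8 or above had a median length of 1432 bases and the 98 with ratios between 2 and 3 a median of 1376. By median length the members were thus close to other genes of like level.

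Reads that also map to other genes were rare in most members. No such read was found in 80 members (53.3%), beside 52.2% of the 9330 genes, and 26 members (17.3%) had over 1% of them, beside 14.1%. Over 10% of reads were shared in 14 members (9.33%), beside 4.79%, and the levels of these 14 are uncertain because the reads could belong to near copies. Counting total in place of unique reads kept all 14 at least 2 times above both later means, with ratios from 2.08 to 8.39. The highest shared portions were 26.6% in ID 919095 and 21.3% in ID 1042382. ID 919095 had 9.56, 8.24 and 19.6 CPM at 2 months, 7.88, 7.10 and 2.48 at 5 months and 4.68, 3.27 and 5.38 at 10 months. Replicate 3 was the high 2-month library, and the lowest 2-month value was 1.04 times the highest later one, the narrowest gap of all members. ID 1042382 had 9.78, 11.6 and 14.3 at 2 months, 7.05, 4.31 and 5.64 at 5 months and 5.04, 5.45 and 6.26 at 10 months. Its 2-month libraries lay above all later ones, as the rule required.

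The authors' RPKM values, which count shared reads and are scaled to library totals, gave a similar excess at 2 months for most members. Every 2-month RPKM value was above all later ones in 146 members, and the 2-month mean was at least 2 times both later means in 129. The median member averaged 38.3, 13.1 and 9.53 RPKM at 2, 5 and 10 months. The likeness of the later harvests was not counted in RPKM. With unique reads scaled to library totals alone, the later means lay within 1.5-fold of each other in 69 of the 150 members. In the authors' RPKM the lowest ratio of the 2-month mean to the higher later mean was 1.83.

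Genes close to the limits of the rule had nearly the same values on both sides. The last members by ratio stood at 2.02 and 2.01, and the genes just beyond the limit of 150 at 2.00 and 2.00. The lowest 2-month means among members were 10.1 and 10.2, and genes that missed this condition alone reached 9.94 and 9.92. Later means differed by up to 1.48-fold among members, and genes just outside stood at 1.51-fold and 1.53-fold. There were 22 genes that met every condition but the separation of libraries. In the closest of them the lowest 2-month library was at 0.998 of the highest later one.

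The 150 genes were part of a larger number that were high at 2 months. Of the 9330 genes with a 2-month mean of at least 10, 256 had this mean at least 2 times both later means and all 2-month libraries above the later ones. Besides the 152 with similar later means, 95 had a 5-month mean over 1.5 times the 10-month mean, and 9 had a 10-month mean over 1.5 times the 5-month mean. The 95 genes had medians of 46.3, 11.8 and 5.77 CPM at 2, 5 and 10 months, beside 40.2, 14.2 and 13.1 in the 150. Their median length was 1213 bases and 13.7% had over 10% shared reads. The difference in 10-month level is fixed by the rule that parts these groups, and the differences in length and shared reads were not tested.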

How the data were processed

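Total RNA was sequenced from 9 libraries, 3 at each harvest. The authors deposited per library counts of unique and of total gene reads together with RPKM for each of 29375 JGI protein IDs, per the file headers. Aligner, read counter, genome version and gene models were, in the sources used here, not given. Transcript length was recovered from total gene reads, their sum and the deposited RPKM values, whole within 0.01 bases for 25486 genes. Separate microcosms are given as biological replicates, per the labels.

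Unique gene reads were divided by median-of-ratios size factors over 19535 genes with reads in every library and scaled to the mean of the raw library totals. Members and lists were chosen with earlier results of these data known. Log2 fold changes came from edgeR 4.0.16 (R 4.3.3), with filterByExpr, TMM scaling and robust quasi-likelihood fits on all 9 libraries, with 6 residual degrees of freedom, and p-values adjusted over 20168 genes. The SE is the fold change divided by the square root of F. On simulated data with 200 genes changed among 19864 this step recovered 50% of 2-fold and 97% of 4-fold changes at 5 against 2 months. At 10 against 2 months it recovered 44% and 93%. False calls made up 5.16% and 6.16% of the simulated calls in these comparisons. The real comparisons called far more genes than were changed in the simulation, so these percentages need not hold for them. Alternatives used DESeq2 1.42.0, limma 3.58.1, other scalings and filters, total gene reads, a replicate block and leaving out each library. Added after seeing the data were fits without the 3 libraries rich in the 10 most abundant genes, and another scale for the 2-month minimum. Lists defined by product names could not be applied, as IDs carry no product. Named genes were the 2 members highest in ratio, level per kilobase, 2-month spread and shared reads, and the 2 with the narrowest spread; 1 gene was named under both level and narrow spread. Counting floors cover counting error only. Figures were drawn with matplotlib 3.10.9 in Python 3.11.15.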

Additional observations from a re-analysis of the deposited data

How the results depend on the processing

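The number of genes meeting the rule, 152, lay within 1.5 times that value under TMM or upper-quartile scaling, total gene reads and the other 2-month minimums. It was 99 with library totals alone, of which 63 were members, since the later means then lay within 1.5-fold of each other in 69 members. It was 52 with a 3-fold and 517 with a 1.5-fold minimum and 97 with a closer limit on the later means. Leaving out each library gave 144 to 208, with 122 to 138 members again among them, and leaving out the 3 libraries rich in the 10 most abundant genes gave 195, with 117 members. The members' median ratio of 2.50 stayed between 2.43 and 2.62 under every alternative run. Their share of unique reads without the 10 most abundant genes was 1.86%, 0.627% and 0.483% at 2, 5 and 10 months. With all genes counted it was 1.59%, 0.591% and 0.393%. Leaving out each library, 136 to 146 members were called lower at 5 and between 143 and 149 at 10 than at 2 months, and 0 to 3 differed at 10 against 5 months. A 2-fold minimum in the test left 45, 68 and 0 members in the same order, and without the 3 libraries 93 were called at 10 against 2 months and 0 at 10 against 5 months. At 10 against 5 months DESeq2 called 9 members, limma voom 4, the fit with only the harvests compared 4, upper-quartile scaling 8, library totals alone 46, genes of at least 10 CPM in 3 libraries 8, no filter 1 and total gene reads 1. With 2 called by edgeR, and 13 at an unadjusted p under 0.05, the cause of these differences was not tested. For settings other than the main fit the share of all tested genes called is not given. Their counts are therefore not read as results about the members. A replicate block gave 146, 147 and 0 called members. Same-numbered libraries of different harvests deviated together at r = -0.187 to 0.111, and differently numbered ones at r = -0.165 to 0.194. These values show no pairing by number but cannot exclude it. Among fold changes of the named genes none changed sign, 344 kept their side of the threshold, 25 lost it and 3 gained it. These totals include the fit that left a single 10-month library, whose calls are not listed below. With a 2-fold minimum ID 934201, ID 824376, ID 148504 and ID 1042382 lost their calls at 5 against 2 months. ID 934201 also lost its call at 10 against 2 months in that setting. ID 824376 and ID 1042382 each lost theirs at 10 against 2 months in at least 1 setting. ID 805220 lost its call at 10 against 2 months without 2-month replicate 1, 5-month replicate 3 or any 10-month replicate. The same call was lost with the replicate block, limma voom, library totals alone, no filter or a 2-fold minimum. At 5 against 2 months ID 805220 gained a call without 2-month replicate 2 or 3. Among fits leaving out 1 library, ID 919095 lost its call at 10 against 2 months without 2-month replicate 3 or 10-month replicate 1 or 2. With DESeq2, ID 919095 gained a call at 5 against 2 months.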
